A study of Homo sapiens with 24 samples.

Results

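The genes described here are 44 genes of mitosis and of the spindle checkpoint, taken by name from the 14411 genes listed in any of the 3 count tables. They comprised 9 mitotic kinases, 10 kinetochore and checkpoint proteins, 8 kinesin motors, 2 spindle proteins, 9 cyclins and proteins of the anaphase switch, 3 non-kinase subunits of the chromosomal passenger complex, and FOXM1, TOP2A and MKI67. All 44 were listed in each table and passed the filter on low counts in each line, so none was lost before testing. The cells were Panc-1, a line long established from a ductal carcinoma of the human pancreas, which carried Tet-One (an empty plasmid), Tet-MIST1 with rat MIST1 or Tet-PTF1a with mouse PTF1a, both factors myc-tagged and switched on by doxycycline (Dox). Each line was grown out from clones under puromycin and screened for induction, so a difference between lines cannot be told apart from a difference between clones, and passage was 32 for Tet-One and Tet-PTF1a and 33 for Tet-MIST1. Of each line, 4 biological replicates without Dox (Control) and 4 after 72 h in 1 µg/ml Dox were sequenced as polyadenylated RNA, which gave 24 libraries of 17210989 to 43018494 counted reads.

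Mitosis is driven by CDK1 bound to B-type cyclins, which switches on further kinases, condenses the chromosomes and builds the spindle. Kinetochores attach each chromosome to microtubules, and the checkpoint kinases and MAD and BUB proteins hold the anaphase-promoting complex (APC/C) back until every kinetochore is attached. The APC/C with CDC20 then destroys cyclin B and securin, separase cuts cohesin, and kinesins and the passenger complex divide the cell. The transcripts of these genes rise together in G2 and M phase, largely through CCAAT boxes and cell cycle homology regions (CHR, TTTGAA) in their promoters, and they are read in tumors such as pancreatic carcinoma as marks of dividing cells. MIST1 and PTF1a are basic helix-loop-helix factors of acinar cells, which bind E boxes (CANNTG), and differentiated acinar cells seldom divide. In bulk RNA, fewer cells in mitosis and less of a transcript per dividing cell cannot be told apart.

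The promoters of 6 members are shown first, since they carry CCAAT boxes, which many of the group share, and belong to genes on which the results turn. NEK2 and SPC25 changed most in Tet-PTF1a and Tet-MIST1, and CENPA changed in opposite directions. PLK1 rose in Tet-PTF1a, and CDK1 and CCNB1 form the kinase that drives mitosis. The runs of NEK2 and CCNB1 hold no TTTGAA. A further TTTGAA of SPC25, which begins 3 bases before the start, runs past the end of its run and is not marked. Each run is the 250 bases before the RefSeq start in GRCh38.p14, written 5′ to 3′ on the strand of the gene, and capitals mark every CCAAT box, CHR (TTTGAA) and E box of the form CAGCTG on either strand (ATTGG is CCAAT read from the other strand).
NEK2 (chr1:211675622-211675871, minus strand): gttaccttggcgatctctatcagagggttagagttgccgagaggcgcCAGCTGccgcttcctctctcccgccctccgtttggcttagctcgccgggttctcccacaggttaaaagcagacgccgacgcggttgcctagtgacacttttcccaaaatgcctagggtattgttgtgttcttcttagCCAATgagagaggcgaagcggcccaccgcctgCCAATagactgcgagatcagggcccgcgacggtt
CENPA (chr2:26785806-26786055, plus strand): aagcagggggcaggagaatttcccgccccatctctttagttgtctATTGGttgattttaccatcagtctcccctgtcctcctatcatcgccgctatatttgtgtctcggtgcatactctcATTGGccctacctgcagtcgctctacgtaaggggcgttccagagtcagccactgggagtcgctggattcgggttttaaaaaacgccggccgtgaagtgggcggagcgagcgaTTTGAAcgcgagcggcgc
SPC25 (chr2:168890431-168890680, minus strand): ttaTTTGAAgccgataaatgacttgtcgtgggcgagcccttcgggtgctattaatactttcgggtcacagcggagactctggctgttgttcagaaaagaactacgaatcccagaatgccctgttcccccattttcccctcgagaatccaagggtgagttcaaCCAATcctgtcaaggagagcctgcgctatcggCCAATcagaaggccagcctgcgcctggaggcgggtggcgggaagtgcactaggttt
PLK1 (chr16:23678639-23678888, plus strand): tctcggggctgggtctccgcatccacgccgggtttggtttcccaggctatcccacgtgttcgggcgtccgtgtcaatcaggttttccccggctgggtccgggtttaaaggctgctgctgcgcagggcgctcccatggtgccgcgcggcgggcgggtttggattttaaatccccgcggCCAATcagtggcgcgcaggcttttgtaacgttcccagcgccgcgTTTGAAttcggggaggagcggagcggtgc
CDK1 (chr10:60778081-60778330, plus strand): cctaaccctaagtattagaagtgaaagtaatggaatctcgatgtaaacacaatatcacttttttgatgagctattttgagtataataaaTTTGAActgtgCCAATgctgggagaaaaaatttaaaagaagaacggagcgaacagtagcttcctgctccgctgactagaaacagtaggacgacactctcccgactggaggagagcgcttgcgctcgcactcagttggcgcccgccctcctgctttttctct
CCNB1 (chr5:69166900-69167149, plus strand): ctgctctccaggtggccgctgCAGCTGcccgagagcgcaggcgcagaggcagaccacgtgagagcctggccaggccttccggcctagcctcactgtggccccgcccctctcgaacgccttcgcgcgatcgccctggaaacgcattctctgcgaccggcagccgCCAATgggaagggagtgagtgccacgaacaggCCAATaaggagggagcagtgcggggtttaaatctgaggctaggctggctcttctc

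RefSeq windows of 300 bases, 250 before and 50 after the start, were found for 36 of the 44 members, and those of AURKA, TTK, BUB3, CENPM, TPX2, UBE2C, BIRC5 and FOXM1 were not among them. CCAAT stood in 29 of the 36 (80.6%), against 35.7% of all 27305 promoters in the table and 36.1% of the 10505 promoters of listed genes. TTTGAA stood in 25 (69.4%), against 15.4% and 9.27%, and both motifs stood in 21 (58.3%), against 6.08% and 3.94%. TTTAAA, a variant of the CHR, stood in 12 (33.3%), against 12.3% and 7.45%. The E box CANNTG stood in 18 (50%), against 68.9% and 59.8%, and its form CAGCTG, which both factors can bind and which is counted among the CANNTG matches, stood in 4 (11.1%), against 17.7% and 17%. These 4 were NEK2, NDC80, ZWINT and CCNB1, singled out after their letters were seen. In NEK2 the CCAAT boxes began 66 and 34 bases before the start and CAGCTG 203 bases before it. In CCNB1 they began 87 and 55 bases before it and CAGCTG 229 bases before it. Of the members that fell in Tet-PTF1a 14 had a window, with CCAAT in 13, TTTGAA in 11 and CAGCTG in 4. Of those that rose in Tet-MIST1 9 had one, with CCAAT in 8, TTTGAA in 5 and CAGCTG in 1 (NDC80). All matches were exact, on both strands, and a match is a description of letters and was not tested for binding.

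A pair of Dox libraries stood apart before any test was made. In Tet-One Dox replicate 1, genes with over 5000 bases of exon were lower against genes with under 2000 bases by -1.05 on the log2 scale, relative to the mean of the Control libraries, and in Tet-MIST1 Dox replicate 1 by -0.49, while the other libraries lay between -0.16 and 0.094. MKI67, whose exons span 12495 bases, had 194 CPM in that Tet-One library against 556 to 599 in the other 3 Dox libraries, and 317 CPM in that Tet-MIST1 library against 582 to 595. The cause was not tested, and the counts of calls in both lines, and the values that moved most, are also given without these libraries. The human gene PTF1A had 0 to 2 counts in the Control libraries of Tet-PTF1a and 53 to 168 with Dox, although the plasmid carries the mouse sequence. BHLHA15, the human gene of MIST1, was listed in Tet-PTF1a only (16, 8, 2 and 6 counts in Control and 12, 13, 14 and 22 with Dox). It was not listed in Tet-MIST1, so induction of MIST1 could not be read from that gene. The epithelial and Panc-1 markers KRT7, KRT8, KRT18, KRT19 and VIM were listed in all 3 lines at a summed level of 5208 to 14800 CPM. KRT8, KRT18, KRT19 and VIM fell in Tet-PTF1a (log2 fold changes -1.30, -1.096, -1.07 and -0.33). KRT7, a duct keratin, rose there at a low level (log2 fold change 1.64), from a mean of 1.44 CPM to 4.52 CPM without overlap. In Tet-One it had only 1.15 to 3.53 CPM. There too every Dox library lay above every Control library, without a call (log2 fold change 0.65, FDR 0.897, edgeR's quasi-likelihood test). Of 5 immune markers only CD68 was listed (31.1 to 260.2 CPM), of 5 fibroblast markers COL1A1 and PDGFRB (summed, 63.8 to 155 CPM), and of 4 endothelial markers none, and their part in any result was not tested.

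The first question was how these genes stood after induction of PTF1a. Of the 44 members, 18 fell and 2 rose in Tet-PTF1a (FDR under 0.05 in edgeR's quasi-likelihood test), or 40.9% against 24.4% of all 14053 genes tested for a fall and 4.55% against 23.8% for a rise. The kinase NEK2, the centromeric histone CENPA, separase (ESPL1), CCNB1, CDK1 and TOP2A were among those that fell, whereas AURKB and PLK1 rose. All of these changes were small. The largest, NEK2, was a fall of 16.7%, and 24.9% of all genes tested had a larger absolute log2 fold change. In either direction 20 members (45.5%) and 48.2% of all genes were called. The median absolute log2 fold change was 0.12 over the 20 called members and 0.23 over all 6775 DEGs, and the median log2 fold change of all 44 members was -0.039, against 0.0014 for all genes. In 18 members every Dox library lay below every Control library (background 21.4%), and in 1 member, AURKB, every Dox library lay above (background 20.8%). FDR values in what follows are from the same test with Benjamini-Hochberg adjustment over all genes of the line, and CPM values were scaled by TMM within the line.

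**Figure D1:**
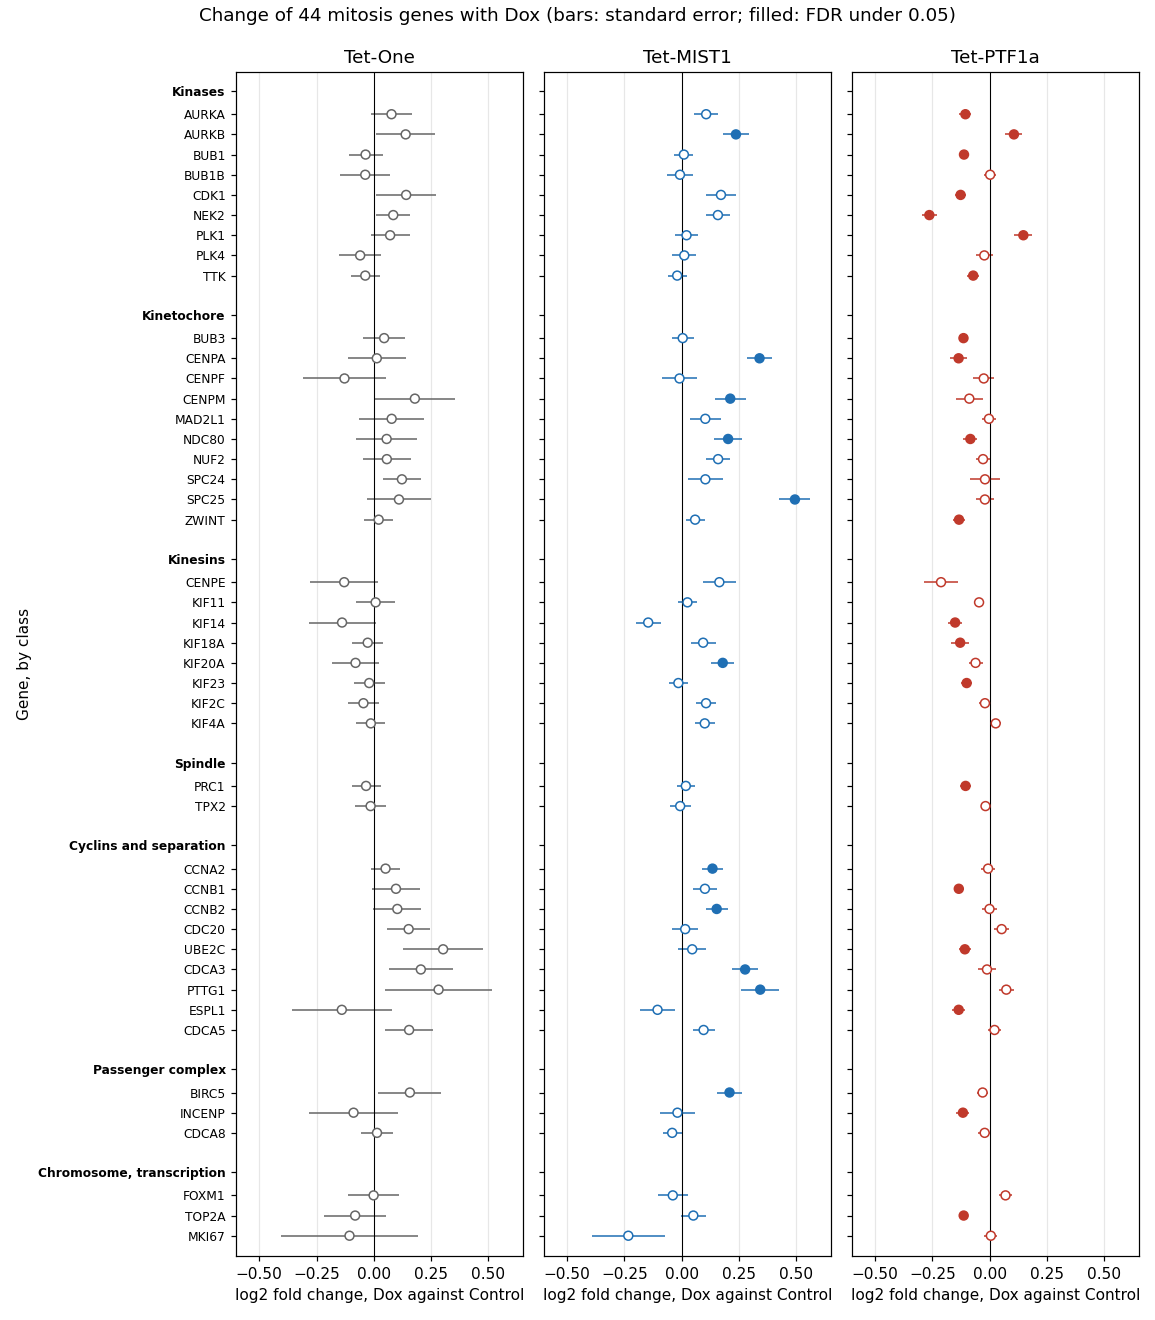
Log2 fold change of Dox against Control (x axis) of each of the 44 genes (y axis, by class) in Tet-One, Tet-MIST1 and Tet-PTF1a, with bars for the standard error and filled points for FDR under 0.05. In Tet-PTF1a 18 filled points lie left of 0 and 2 right of it, in Tet-MIST1 all 11 lie right of 0, and in Tet-One none is filled.

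CDK1 and one of its B-type cyclins were lower with PTF1a. CDK1 (hg19, chr10:62538089-62554610), the kinase that starts mitosis, had 203, 204, 207 and 204 CPM in Control and 188, 191, 181 and 189 CPM with Dox. Its partner CCNB1 (cyclin B1, chr5:68462837-68474070) had 269, 272, 272 and 264 CPM in Control and 242, 245, 242 and 251 CPM with Dox. In neither gene did the groups overlap, and the falls were alike in size (log2 fold change -0.13, SE 0.0236, FDR 1.22e-05 for CDK1 and log2 fold change -0.14, SE 0.0223, FDR 1.34e-06 for CCNB1). The other cyclins did not pass: CCNA2 (cyclin A2) had a log2 fold change of -0.0071 (FDR 0.867) and CCNB2 (cyclin B2) of -0.0010 (FDR 0.985). Thus 1 of 3 mitotic cyclins passed the test, against 24.4% of all genes for a fall.

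The kinases moved in both directions, with 5 of 9 lower and 2 higher, against 24.4% and 23.8% of all genes. NEK2 (hg19, chr1:211831599-211848972), which separates the centrosomes, had 75.9, 74.0, 71.8 and 77.2 CPM in Control and 66.0, 61.4, 63.2 and 60.2 CPM with Dox, so that its highest Dox library lay under its lowest Control library (log2 fold change -0.26, SE 0.0332, FDR 2.98e-09). BUB1, a checkpoint kinase of the kinetochore, had 276, 276, 280.1 and 278 CPM in Control and 259, 254, 252 and 262 CPM with Dox (log2 fold change -0.11, SE 0.022, FDR 2.82e-05), again with no overlap. AURKA, which matures the spindle poles, fell by 0.11 on the log2 scale (FDR 0.000754), and TTK, the kinase at the head of the checkpoint, by 0.072 (FDR 0.0186). PLK1, which acts from mitotic entry to cell division, had 101, 108, 116 and 115 CPM in Control and 122, 123, 115 and 125 CPM with Dox, and the groups overlapped, with Control replicates 3 and 4 just above Dox replicate 3 (log2 fold change 0.15, SE 0.0396, FDR 0.00499). AURKB, the kinase of the passenger complex, had 44.98, 42.3, 45.2 and 46.8 CPM in Control and 48.9, 49.95, 47.6 and 47.6 CPM with Dox, with every Dox library above the Control libraries (log2 fold change 0.11, SE 0.0373, FDR 0.0164). The rise of AURKB was no longer called without Control replicate 2 (log2 fold change 0.0845) or without Dox replicate 2 (0.091), and the fall of TTK was not without Control replicate 2. BUB1B (BUBR1, 0.0019, FDR 0.962) and PLK4, which duplicates centrioles (-0.024, FDR 0.632), were not called.

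At the kinetochore 4 of 10 members were lower and none was higher, against 24.4% and 23.8% of all genes. With TMM scaling all 10 log2 fold changes were negative, from -0.14 to -0.0033, as were 6968 of all 14053 genes tested. CENPA (chr2:27008882-27017455), the histone H3 variant that marks the centromere, had 50.5, 53.7, 49.3 and 51.9 CPM in Control and 45.6, 46.4, 46.7 and 47.6 CPM with Dox (log2 fold change -0.14, SE 0.0362, FDR 0.00154). ZWINT, which holds checkpoint proteins at the kinetochore, fell by 0.13 (FDR 2.5e-05), and BUB3, the partner of both BUB kinases, by 0.11 (FDR 1.04e-05). NDC80, the microtubule-binding arm of the complex of the same name, had 86.3, 83.1, 81.4 and 81.4 CPM in Control and 76.9, 78.6, 76.1 and 81.3 CPM with Dox (log2 fold change -0.085, SE 0.0309, FDR 0.0209), and that call was lost without Control replicate 1, without Dox replicate 1 and without Dox replicate 3. The other subunits of that complex were not called, with log2 fold changes of -0.029 for NUF2, -0.021 for SPC24 and -0.021 for SPC25. CENPF, CENPM and MAD2L1 (MAD2) had -0.026, -0.089 and -0.0033 and were not called either.

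Of the 8 kinesins 3 fell, against 24.4% of all genes. KIF14, a motor of the midbody, had 105, 113, 106 and 101 CPM in Control and 96.4, 97.3, 95.4 and 92.3 CPM with Dox (log2 fold change -0.15, SE 0.0304, FDR 4.38e-05), with no overlap. KIF18A, which dampens chromosome movement at the metaphase plate, fell by 0.13 (FDR 0.00526), and KIF23, a subunit of centralspindlin, by 0.10 (FDR 0.000707). KIF11 (Eg5), which pushes the spindle poles apart, had 252, 268, 256 and 264 CPM in Control and 251, 255, 257 and 244 CPM with Dox and did not pass (log2 fold change -0.046, SE 0.0236, FDR 0.101). CENPE, which carries chromosomes to the spindle equator, had the lowest value of the class and every Dox library below every Control library, yet its Dox libraries spread widely (log2 fold change -0.21, SE 0.0761, FDR 0.0609). The values of KIF20A (-0.062), KIF2C (-0.021) and KIF4A (0.026) did not pass. KIF4A has a near-identical copy in the genome, KIF4B, and its count is uncertain to that extent. The antiparallel bundler PRC1 had 242, 241, 248 and 247 CPM in Control and 229, 225, 229 and 227 CPM with Dox (log2 fold change -0.11, SE 0.0222, FDR 8.84e-05), and TPX2, which nucleates spindle microtubules, had -0.018 (FDR 0.478).

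Genes of the anaphase switch were split. ESPL1, the protease that cuts cohesin, had 101, 100.1, 104 and 103 CPM in Control and 91.9, 92.7, 93.1 and 94.1 CPM with Dox, with a gap between the groups (log2 fold change -0.14, SE 0.028, FDR 6.62e-05). UBE2C, the ubiquitin-conjugating enzyme of the APC/C, fell by 0.11 (FDR 0.000857). CDC20, its activator, and PTTG1 (securin), its target, had positive values that did not pass (0.052, FDR 0.182 and 0.072, FDR 0.0615). PTTG1 has near-identical copies in the genome. CDCA3 (-0.012) and CDCA5 (sororin, which protects cohesion, 0.021) were not called. In the passenger complex, INCENP, the scaffold that activates AURKB, had 101, 104, 101 and 102 CPM in Control and 93.2, 96.4, 95.2 and 92.1 CPM with Dox (log2 fold change -0.12, SE 0.0283, FDR 0.000532), BIRC5 (survivin) had -0.031 (FDR 0.33) and CDCA8 (borealin) -0.022 (FDR 0.571). Within this complex the kinase rose while its scaffold fell.

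The antigen of Ki-67, MKI67, which coats mitotic chromosomes and is the usual stain for dividing cells, had 844, 901, 879 and 911 CPM in Control and 901, 895, 918 and 834 CPM with Dox. The groups overlapped fully (log2 fold change 0.0050, SE 0.028, FDR 0.902). TOP2A, the topoisomerase that untangles sister chromatids, had 963, 1010, 989 and 981 CPM in Control and 921, 910.5, 933 and 879 CPM with Dox and fell without overlap (log2 fold change -0.11, SE 0.0204, FDR 6.66e-06). FOXM1, a transcription factor that activates G2 and M phase genes, had 99.4, 96.8, 104 and 103 CPM in Control and 109.7, 106, 101 and 107 CPM with Dox and did not pass (log2 fold change 0.069, SE 0.0296, FDR 0.0503), although it passed as a rise in 3 of 8 fits made with 1 library left out. The level of all 44 genes added together was 8269, 8493, 8429 and 8452 CPM in the Control libraries and 8156, 8135, 8109 and 7951 CPM in the Dox libraries, which do not overlap, or 8411 ± 98.1 against 8088 ± 93.2 CPM (SD, n = 4 each). This separation holds with TMM scaling. As a share of all counts of the library the 44 genes took 0.815, 0.839, 0.833 and 0.835% in Control and 0.825, 0.822, 0.823 and 0.806% with Dox, which overlap, since Control replicate 1 lay below Dox replicates 1 to 3.

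The division of the calls moved with the scaling of the libraries and with the samples in the fit. With library size in place of TMM the median of all genes in Tet-PTF1a moved to 0.038 and the members' median was -0.0018. Then 6 members rose, against 31.3% of all genes, and 16 fell, against 19.2%. Of the 20 calls 18 remained, TTK and NDC80 being lost, and KIF4A, CDC20, PTTG1 and FOXM1 joined as higher. Over all genes the share of DEGs that rose went from 49.4% to 61.9%. In a single fit of all 24 libraries, which shared one estimate of the spread, 3 members fell (NEK2, ZWINT and PRC1; 6.82%, against 23.2% of all genes in either direction) and none of the rises passed. Since the use of strand in the counting was not given, reads of PRC1 and of its antisense gene PRC1-AS1, which overlap by 337 exon bases, cannot be told apart, and the same holds for FOXM1 and LOC100507424 (450 bases).

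**Figure D2:**
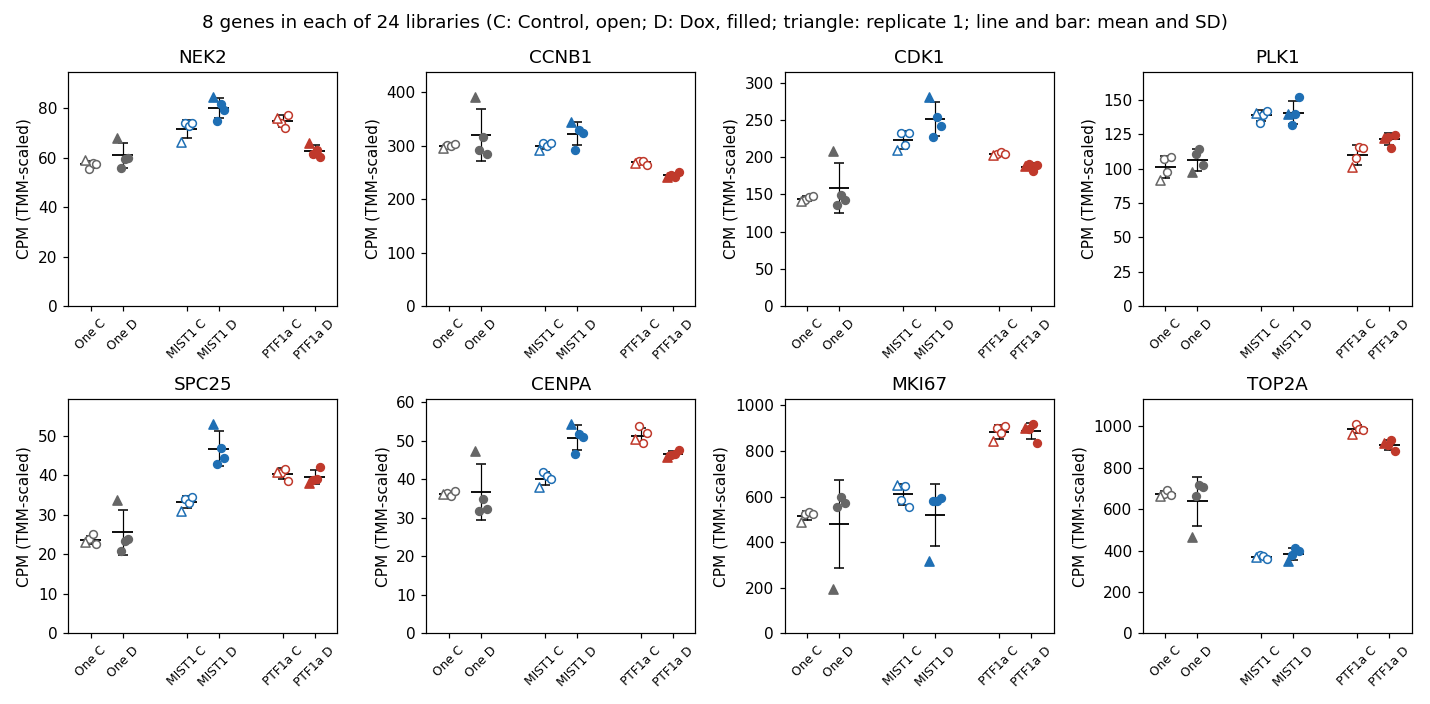
TMM-scaled CPM (y axis, from 0) of 8 genes in each of the 24 libraries, by line and condition (x axis), with a triangle for replicate 1 and a line and bar for the mean and SD of 4. NEK2, CCNB1, CDK1, CENPA and TOP2A are lower with Dox in Tet-PTF1a with no overlap, SPC25 and CENPA are higher with Dox in Tet-MIST1 with no overlap, and the triangles of MKI67 show the Dox libraries at 194 and 317 CPM.

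The same question was asked of MIST1. In Tet-MIST1, 11 of the 44 members rose (25%, against 11.9% of all 13623 genes tested) and none fell (against 8.77%, by the same test; 1 member, KIF14, had a negative value at an unadjusted p under 0.05). They were the kinetochore genes SPC25, CENPA, CENPM and NDC80, the cyclins CCNA2 and CCNB2, CDCA3 and PTTG1, the kinase AURKB, its partner BIRC5, and KIF20A. The changes ran from 0.13 to 0.49, and the members' median was 0.095 against -0.0036 for all genes, with 33 positive and 11 negative values. Every Dox library lay above every Control library in 13 members (background 14.1%) and below in 1, KIF14 (background 12.9%). Libraries of a group spread more than in Tet-PTF1a (biological coefficient of variation 6.58%, or 4.11% without Dox replicate 1, against 2.80%).

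SPC25 (hg19, chr2:169727401-169746944), the subunit that joins the NDC80 complex to the centromere side of the kinetochore, had 31.0, 34.1, 33.0 and 34.5 CPM in Control and 52.9, 42.8, 46.8 and 44.4 CPM with Dox (log2 fold change 0.49, SE 0.0678, FDR 0.000559), a rise of 40.9% with no overlap. CENPA had 38.0, 41.9, 40.8 and 40.0 CPM in Control and 54.3, 46.5, 51.7 and 50.9 CPM with Dox (log2 fold change 0.34, SE 0.0563, FDR 0.00191). NDC80 had 89.4, 102, 90.8 and 96.4 CPM in Control and 119, 99.8, 110.5 and 106 CPM with Dox, with Dox replicate 2 inside the Control range (log2 fold change 0.20, SE 0.0612, FDR 0.0368). CENPM, of the inner kinetochore, rose by 0.21 (FDR 0.0448). NUF2 had a log2 fold change of 0.16 (FDR 0.0545) and SPC24 of 0.10 (FDR 0.356). Thus 2 of the 4 subunits of the NDC80 complex passed, against 11.9% of all genes for a rise. The checkpoint members were close to 0, with BUB3 at 0.0043, BUB1B at -0.0076 and TTK at -0.020, whereas MAD2L1 had 0.10 (FDR 0.298), and ZWINT and CENPF had 0.059 and -0.0096.

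AURKB had 92.6, 95.8, 96.3 and 94.0 CPM in Control and 121, 104, 105 and 117 CPM with Dox (log2 fold change 0.24, SE 0.055, FDR 0.012), and BIRC5 had 167, 174, 168 and 175 CPM in Control and 215, 179.8, 194 and 201 CPM with Dox (log2 fold change 0.21, SE 0.0541, FDR 0.0198), both without overlap. The other subunits of the passenger complex, INCENP (-0.019, FDR 0.88) and CDCA8 (-0.042, FDR 0.49), were not called. PTTG1 had 97.2, 109, 101 and 107 CPM in Control and 157, 114, 129 and 126 CPM with Dox (log2 fold change 0.34, SE 0.0829, FDR 0.0144), with Dox replicate 1 well above the rest. CDCA3, which helps degrade WEE1, rose by 0.28 (FDR 0.00737), CCNB2 by 0.15 (FDR 0.0441) and CCNA2 by 0.13 (FDR 0.0491). KIF20A, a kinesin of the late spindle, had 101, 103, 106 and 104 CPM in Control and 108, 114, 123 and 123 CPM with Dox (log2 fold change 0.18, SE 0.0508, FDR 0.0292). Its exons overlap those of CDC23 on the other strand by 68 bases, those of CDCA3 overlap GNB3 by 112 and those of CCNA2 overlap EXOSC9 by 254.

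CDK1 and CCNB1 did not pass in Tet-MIST1, whereas CCNB2, also a B-type cyclin, rose as given above. CDK1 had 209, 232, 216 and 233 CPM in Control and 281, 228, 254 and 242 CPM with Dox (log2 fold change 0.17, SE 0.0644, FDR 0.078), and CCNB1 had 292, 306, 299 and 305 CPM in Control and 344, 293, 329.6 and 324 CPM with Dox (log2 fold change 0.10, SE 0.0519, FDR 0.177), in both cases with Dox replicate 2 inside the Control range. PLK1 had 141, 133, 139 and 142 CPM in Control and 139, 132, 139.8 and 152 CPM with Dox (0.021, FDR 0.788), and BUB1 had 219, 224, 221 and 219 CPM in Control and 211, 221, 232 and 224 CPM with Dox (0.0095, FDR 0.888). These values of PLK1 and BUB1 did not separate the groups. KIF11 had 201, 204, 198 and 198 CPM in Control and 191, 206, 211 and 208 CPM with Dox (0.025, FDR 0.704). NEK2, AURKA and PLK4 had log2 fold changes of 0.16, 0.11 and 0.011 with FDR values of 0.055, 0.16 and 0.895.

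Among the chromosome genes MKI67 had 652, 587, 645 and 556 CPM in Control and 317, 582, 582 and 595 CPM with Dox, and its log2 fold change of -0.23 (SE 0.159, FDR 0.305) became -0.056 without Dox replicate 1. TOP2A had 371, 379, 372 and 361 CPM in Control and 348, 378, 413 and 396 CPM with Dox (0.051, FDR 0.517). FOXM1 had 114, 107, 109.9 and 103 CPM in Control and 92.4, 106, 107 and 118 CPM with Dox (-0.039, FDR 0.698), and neither moved beyond the spread. The remaining members, KIF14, KIF18A, KIF23, KIF2C, KIF4A, CENPE, PRC1, TPX2, CDC20, UBE2C, ESPL1 and CDCA5, had log2 fold changes from -0.15 to 0.16 and were not called. The summed level was 7131 to 7299 CPM in Control and 7178 to 7668 CPM with Dox, which overlap.

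These rises depended on which libraries were in the fit. Without Dox replicate 1, 15 members rose and none fell, all 11 named above among them, and NEK2, NUF2, CENPE and KIF2C were added (34.1% of the members, against 14.3% of all genes for a rise). The members' median was then 0.074, with 36 positive and 8 negative values. Among called genes SPC25 went to 0.43, CENPA to 0.31, PTTG1 to 0.25, AURKB to 0.20, BIRC5 to 0.17, NDC80 to 0.16, CENPM to 0.15 and KIF20A to 0.22. CENPE, a long gene, went from 0.16 to 0.23 (FDR 0.000993) and so passed. Of those still not called, TOP2A went to 0.10, CDK1 to 0.11, CCNB1 to 0.070, MAD2L1 to 0.041, KIF11 to 0.056 and BUB1 to 0.034, and FOXM1 and UBE2C changed sign, to 0.021 and -0.011. Without Dox replicate 2, 17 rose (38.6%, against 15%). Leaving out one of the Control libraries gave 4 (replicate 1), 7 (replicate 2), 5 (replicate 3) or 6 (replicate 4). Without Dox replicate 3 there were 7 and without Dox replicate 4 there were 5. In these 6 fits 9.09% to 15.9% of the members rose, against 7.07% to 9.72% of all genes for a rise and 10.6% to 15.3% for either direction. The shares that rose were 9.09% against 7.24% without Control replicate 1. Without Control replicate 2 they were 15.9% against 7.93%, and without Dox replicate 3 they were 15.9% against 9.72%. AURKB, CENPA, SPC25 and CDCA3 were called in each of the 8 fits with a library left out, PTTG1 in 7, BIRC5 in 5, CENPM and NDC80 in 3, and KIF20A, CCNA2 and CCNB2 in 2. In the single fit of all 24 libraries SPC25, CENPA and CCNA2 rose (6.82%, against 7.86% of all genes).

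Dox alone was examined in Tet-One. None of the 44 members was called, none had an unadjusted p under 0.05, and of all 13428 genes tested none was called (background 0%) while 401 had an unadjusted p under 0.05, by edgeR's quasi-likelihood test. DESeq2 also called none of the members. No member separated its groups (background 1.35% above and 1.06% below). The median log2 fold change was 0.018 and the values ran from -0.14 (ESPL1) to 0.30 (UBE2C). Without Dox replicate 1 the median was 0.0060 and the values ran from -0.14 (CENPA) to 0.15 (MKI67), with ESPL1 at 0.060 and UBE2C at 0.076. The biological coefficient of variation was 14.4% here and 4.79% without Dox replicate 1, and no member was called then either. In test data 200 genes, drawn from expressed genes at large, were set to a log2 change of 0.15. Of them 0% were recovered for Tet-One, 0.5% for Tet-MIST1 and 38% for Tet-PTF1a. At 0.5 the shares were 27.5%, 95.5% and 90.5%. Every gene was given the common spread of its line, for Tet-One the 14.4% that includes Dox replicate 1. These shares therefore do not describe the 44 members themselves. The 20 members called in Tet-PTF1a had a median absolute log2 fold change of 0.12. Whether Dox alone moves these genes by so little was not tested.

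MKI67 had 489, 522, 531 and 523 CPM in Control and 194, 556, 599 and 569.9 CPM with Dox. TOP2A had 664, 673, 691 and 667 CPM in Control and 463, 663, 715 and 708 CPM with Dox, and FOXM1 had 68.6, 76.4, 68.4 and 77.9 CPM in Control and 58.3, 77.2, 81.7 and 74.1 CPM with Dox. In all 3 genes Dox replicate 1 was the lowest library. CDK1 had 141, 142, 146 and 147 CPM in Control and 209, 136, 149 and 143 CPM with Dox. CCNB1 had 295, 302, 299 and 304 CPM in Control and 391.6, 292, 316 and 284 CPM with Dox, and NDC80 had 67.5, 63.8, 65.6 and 61.6 CPM in Control and 88.2, 59.9, 61.8 and 59.0 CPM with Dox. In these shorter genes the same library was the highest. AURKB had 56.3, 59.3, 57.2 and 62.9 CPM in Control and 84.3, 60.3, 59.4 and 55.6 CPM with Dox, and PLK1 had 91.5, 107, 97.3 and 109 CPM in Control and 97.1, 111, 114 and 103 CPM with Dox. BUB1 had 197, 207, 209 and 205 CPM in Control and 179, 201, 214 and 204 CPM with Dox, and KIF11 had 139, 153, 152 and 148 CPM in Control and 131, 146, 168 and 151 CPM with Dox. Without Dox replicate 1 the log2 fold changes were 0.15 for MKI67, -0.020 for CDK1, -0.017 for CCNB1, -0.11 for NDC80, 0.041 for TOP2A, 0.089 for FOXM1, -0.016 for AURKB and 0.11 for PLK1.

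Exon length moved with the changes in the lines that held these libraries. Across the 44 genes, which share the libraries and are not independent replicates, the log2 fold change and the log2 of exon length had a Pearson r of -0.79 (Spearman -0.83) in Tet-One and of -0.60 (-0.59) in Tet-MIST1, against -0.28 (-0.25) in Tet-PTF1a. Without Dox replicate 1 these became 0.29 (0.34) in Tet-One and -0.38 (-0.37) in Tet-MIST1. In Tet-MIST1 the 12 members under 2000 bases had a median of 0.16 and the 7 members over 5000 bases of -0.0096, and without Dox replicate 1 of 0.14 and 0.056. When the trend with exon length was removed from each library, 14 members rose in Tet-MIST1 (31.8%, against 13.2% of all genes for a rise). Of these, 8 were among the 11 above, CDK1, NEK2, CENPF, CENPE, KIF4A and TOP2A joined, and CENPM, CCNA2 and CCNB2 left. In Tet-PTF1a the same correction gave 3 higher and 20 lower, against 24.7% and 24.3% of all genes, and all 20 calls remained.

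**Figure D3:**
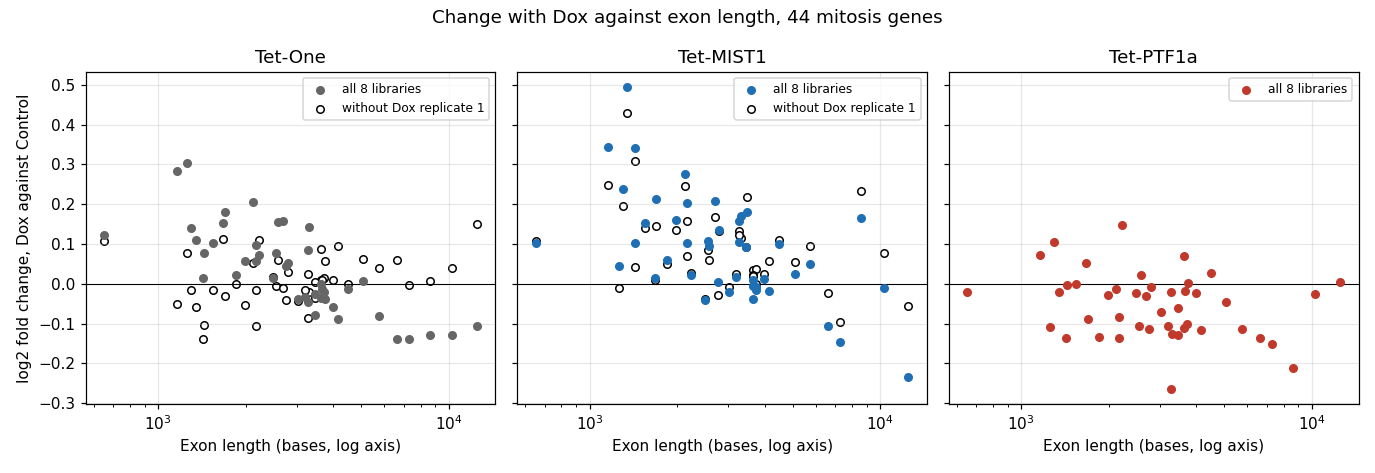
Log2 fold change of Dox against Control (y axis) against exon length in bases (x axis, log scale) of the 44 genes in each line, filled for all 8 libraries and open without Dox replicate 1. In Tet-One the filled points slope down from short to long genes (Pearson r -0.79) and the open points do not (0.29), and Tet-PTF1a has no open points since its libraries did not stand apart.

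Whether responses differed between lines was tested with an interaction term. Responses were compared with their sign, so that a smaller response is a lower log2 fold change and not a lesser change. NEK2, at -0.26 in Tet-PTF1a and 0.16 in Tet-MIST1, is such a case. Between Tet-PTF1a and Tet-MIST1, 18 of the 44 members had a smaller response in Tet-PTF1a (40.9%, against 18.6% of 13506 genes) and none a larger one (against 17.8%). The difference was -0.51 for SPC25, -0.47 for CENPA and -0.40 for NEK2, with FDR values of 6.55e-05, 1.46e-05 and 5.99e-05. CENPA and NDC80 were called in both lines, in opposite directions (-0.47, FDR 1.46e-05 and -0.28, FDR 0.00498 for the difference). CENPE, which was called in neither line, differed by -0.36, FDR 0.00599, and CDK1 differed by -0.29, FDR 0.00379, CCNB1 by -0.23, FDR 0.00426, and BIRC5 by -0.23, FDR 0.00816. CENPM, NUF2, ZWINT, AURKA, CDCA3, KIF18A, KIF20A, PTTG1, TOP2A and PRC1 made up the rest, from -0.29 to -0.11. AURKB, which rose in both lines, did not differ by the test (-0.12, FDR 0.196), nor did KIF14 (0.0051, FDR 0.957), PLK1 (0.13, FDR 0.124) or MKI67 (0.25, FDR 0.305). Without Tet-MIST1 Dox replicate 1, 22 members had a smaller response in Tet-PTF1a (50%, against 20.6% of all genes). Over the fits with 1 library left out the number ran from 14 (31.8%, against 16.9%, without Tet-MIST1 Control replicate 1) to 24 (54.5%, against 20.7%, without Tet-MIST1 Dox replicate 2). With a block for replicate number it was 14 (31.8%, against 16%). With Tet-MIST1 Dox replicate 4 left out, PLK1 and FOXM1 had a larger response in Tet-PTF1a.

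Against the empty vector the counts moved with Tet-One Dox replicate 1. NEK2 was the only member whose response differed between Tet-PTF1a and Tet-One (-0.34, FDR 0.00836), 2.27% of the members, against 7.34% of 13506 genes for a smaller response, 5.52% for a larger one and 12.9% for either, and it was called in each of the 16 fits that left out 1 library. Without Tet-One Dox replicate 1, 11 members had a smaller response in Tet-PTF1a (25% of the members, against 30.7% of all genes in either direction and 16.1% smaller). They were NEK2, BUB1, ZWINT, KIF14, KIF23, CCNB1, UBE2C, ESPL1, INCENP, TOP2A and MKI67. At an unadjusted p under 0.05 SPC25, CENPA and KIF20A differed between Tet-MIST1 and Tet-One, but no member was called, against 1.67% of 13859 genes in either direction (1.49% larger and 0.188% smaller), and DESeq2 also called none. The largest of the positive differences were SPC25 (0.38, FDR 0.36) and CENPA (0.32, FDR 0.384). Without Tet-One Dox replicate 1, AURKB, CENPA, NDC80, SPC25 and PTTG1 had a larger response in Tet-MIST1 (11.4% of the members, against 14.1% of all genes in either direction and 7.58% larger), and without Dox replicate 1 of both lines 8 members had a larger one and MKI67 a smaller one (20.5% of the members, against 16% of all genes in either direction, 8.27% larger and 7.7% smaller). Both comparisons used the same 8 Tet-One libraries.

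**Figure D4:**
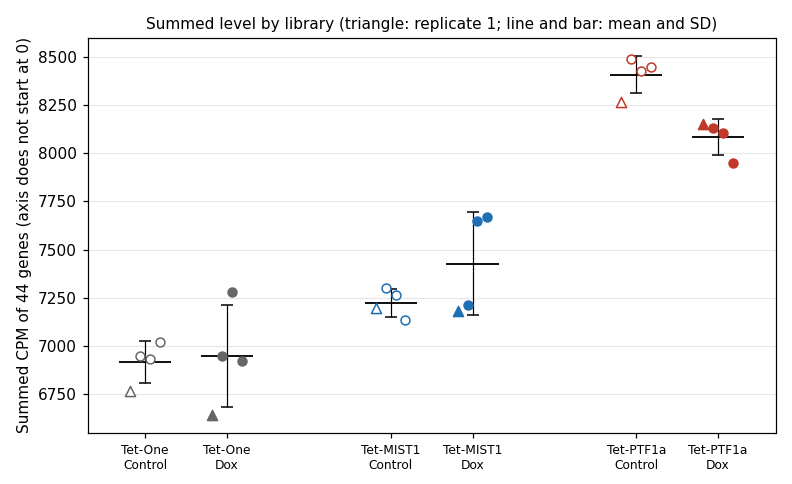
TMM-scaled CPM summed over the 44 genes (y axis, not from 0) in each library by line and condition (x axis), with the mean and SD of 4 and a triangle for replicate 1. The Tet-PTF1a Dox libraries (7951 to 8156 CPM) lie below the Control libraries (8269 to 8493 CPM) with this scaling, whereas as shares of all counts they overlap (0.806 to 0.825% and 0.815 to 0.839%), and the groups of the other lines overlap.

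A list of 107 further mitosis genes, which holds none of the 44, was counted in the same way. In Tet-PTF1a 40 fell (37.4%, against 24.4% of all genes) and 10 rose (9.35%, against 23.8%). The median was -0.043, against 0.0014 for all genes. WEE1, the kinase that holds CDK1 inactive, had 149, 142, 137 and 137 CPM in Control and 103, 96.1, 101 and 103 CPM with Dox (log2 fold change -0.49, FDR 5.26e-19). The motor KIFC3 and anillin (ANLN), which scaffolds the cleavage furrow, fell by 0.37 each (FDR 9.26e-11 and 8.73e-11). The largest rises were those of the phosphatase CDC14B (0.29) and of the APC/C subunits ANAPC10 (0.27) and CDC26 (0.21), all without overlap. Thus WEE1, KIFC3 and ANLN fell by more than any of the 44.

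In Tet-MIST1, 15 of the 107 rose (14%, against 11.9% of all genes) and 4 fell (3.74%, against 8.77%). The median was 0.048, against -0.0036 for all genes. The inner kinetochore genes CENPT (0.51, FDR 3.4e-05), CENPP (0.47, FDR 0.000859) and CENPW (0.42, FDR 0.00756) rose most. CENPT had 53.9, 55.4, 54.7 and 55.2 CPM in Control and 82.4, 74.1, 75.2 and 80.2 CPM with Dox, a wide gap. The APC/C subunit ANAPC1 (-0.29), the kinetochore gene CENPI (-0.27) and the cohesin regulator PDS5A (-0.17) fell most. The number that rose was 23 without Dox replicate 1 and 27 without Dox replicate 2, against 14.3% and 15% of all genes. It ran from 10 to 27 over the fits with 1 library left out. The number that fell was 0 without Control replicate 1 or 3, 1 without Control replicate 2 and 2 without Dox replicate 4. In these fits 3.49% to 5.79% of all genes fell. In Tet-One none of the 107 was called, and 1 had an unadjusted p under 0.05 in the same edgeR test.

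CDKN1A encodes p21, which binds and blocks cyclin-dependent kinases. In Tet-PTF1a it had 16.6, 16.5, 15.8 and 17.5 CPM in Control and 19.5, 19.6, 18.9 and 21.6 CPM with Dox, and rose by 0.26 on the log2 scale (FDR 9.13e-05) with no overlap. In Tet-MIST1 it had 86.8, 81.3, 82.2 and 84.1 CPM in Control and 88.3, 82.9, 80.8 and 89.0 CPM with Dox (0.029, FDR 0.688). In Tet-One the values were 23.6, 29.1, 24.7 and 27.5 CPM in Control and 29.9, 28.6, 25.1 and 26.1 CPM with Dox (0.066, FDR 0.897). Neither of these passed, and whether the responses differ between lines was not tested for this gene.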

How the data were processed

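RNA of 24 libraries (3 lines, Control and Dox, 4 each) was analysed as counts per gene from 3 tables, 1 per line. Paired-end reads had been aligned by the authors with TopHat (build hg19), and raw counts were deposited beside CPM. The processing notes also name HTSeq, DESeq and edgeR. Versions, annotation and strand use were not given in the sources used here. The tables' CPM, fold changes, p-values and FDR were not used.

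Genes over 0.5 CPM in at least 4 of 8 libraries were tested in each line (TMM, robust quasi-likelihood test, Benjamini-Hochberg FDR under 0.05) with edgeR 4.0.16 in R 4.3.3. Fold changes used a prior count of 2. An interaction over 16 libraries compared responses with their sign, so that smaller means a lower log2 fold change. Alternatives were other scalings and filters, DESeq2 1.42.0, a block for replicate number, a trend with exon length, and each library left out. Scripts were tested on simulated data. Depths of 17210989 to 43018494 counts set the precision, and p-values measure the spread between cultures of 1 line.

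Members and lists were chosen with earlier results of these data known. Named were all members by class, values per library for 10 fixed genes and for the called member of each class with the largest change, CDKN1A, and the 3 other mitosis genes that changed most in each direction. Promoters came from RefSeq (GRCh38.p14).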

Additional observations from a re-analysis of the deposited data

Results flagged for a closer look

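Of 86 groups of 4 libraries, 4 (4.65%) held a library farther from its neighbours than Dixon's 95% limit allows, where chance gives about 1 in 20. All 4 were Dox replicate 1. In Tet-One that library had 194.3 CPM of MKI67 against 556 to 599 in the other Dox libraries, 84.33 CPM of AURKB against 55.64 to 60.29, and 88.25 CPM of NDC80 against 58.99 to 61.79. In Tet-MIST1 it had 317.1 CPM of MKI67 against 582 to 594.7.

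The response to Dox differed between lines in the interaction test for the following genes with values in each library. NEK2 differed by -0.3405 on the log2 scale between Tet-PTF1a and Tet-One. Between Tet-PTF1a and Tet-MIST1 the kinases CDK1 and NEK2 differed by -0.2884 and -0.4042. The kinetochore genes CENPA, NDC80 and SPC25 differed by -0.4671, -0.2771 and -0.5108. KIF20A and PRC1, of the central spindle, differed by -0.2317 and -0.1115. CCNB1 and PTTG1 differed by -0.2265 and -0.2666, BIRC5 by -0.2304, and TOP2A by -0.1526. In each case the log2 fold change was lower in Tet-PTF1a, which does not mean a lesser change.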

How the results depend on the processing

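Of 774 values of single genes under alternatives, 690 kept their direction and side of the threshold, 41 lost the call, 14 gained it and 29 changed sign, none of them a call. Every count of members or listed genes called became 0 with a minimum absolute log2 fold change of 1. In the fit of all 24 libraries, in Tet-MIST1 3 members, 8 further mitosis genes and 3 replication genes rose, and 0 and 1 of the latter lists fell. In Tet-PTF1a 0, 1 and 2 rose and 3, 11 and 1 fell. With library size in place of TMM, 6, 17 and 16 rose in Tet-PTF1a, where 31.3% of all genes rose, and the members' median was -0.0018. Without the trend with exon length 27 further mitosis genes rose in Tet-MIST1, against 13.2% of all genes. With GC content removed as well, chosen after seeing the data, 29 rose there, against 15.4%, and 5 replication genes fell, against 13.6%. In Tet-PTF1a 5 members rose, against 24.9% of all genes. A smaller response in Tet-PTF1a than in Tet-One was called for 9 members, against 11.3% of all genes (2 with DESeq2, against 8.83%). A larger response in Tet-MIST1 than in Tet-One was called for 2, against 4.26%. A larger response in Tet-PTF1a than in Tet-MIST1 was called for 1, against 20.2% (also 1 with library size, against 21.2%). With Dox replicate 1 of both lines left out, also chosen after seeing the data, 8 members had a larger and 1 a smaller response in Tet-MIST1 than in Tet-One (20.5%, against 16% of all genes). The cause of these shifts was not tested.

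Whether replicate numbers pair the samples is not known. The correlation of same-numbered deviations was over 0.1 in 1 of 4 pairs in Tet-One and in none in Tet-MIST1 and Tet-PTF1a. It ran from -0.289 to 0.22 in Tet-One and from -0.293 to 0.014 in Tet-MIST1, and 4 pairs cannot exclude a shared batch. With the replicate block 5 members (11.4%, against 7.06% of all genes) and 2 replication genes rose in Tet-MIST1. There 2 further mitosis genes and 0 replication genes fell, against 3.68% of all genes. In Tet-PTF1a 21 members were called (47.7%, and also 47.7% of all genes in either direction).

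With 1 library left out, 4 to 17 members, 10 to 27 further mitosis genes and 2 to 10 replication genes rose in Tet-MIST1. Over these fits 7.07% to 15% of all genes rose there. Of the latter lists 0 to 5 and 0 to 3 fell, against 3.49% to 12.7% of all genes. In Tet-PTF1a 1 to 4 members and 3 to 8 replication genes rose, against 21% to 22.7% of all genes. Between 1 and 11 members had a smaller response in Tet-PTF1a than in Tet-One, against 5.8% to 16.1% of all genes. A larger response in Tet-MIST1 than in Tet-One was called for 0 to 5 members, against 0.974% to 7.58% of all genes. A larger response in Tet-PTF1a than in Tet-MIST1 was called for 0 to 2, against 14% to 20.2%.

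Signs turned for uncalled values near 0. In Tet-One FOXM1 became 0.0118 without the length trend and 0.0202 without that of length and GC, AURKB -0.0113 without the former, NDC80 -0.0256 and -0.0056, and KIF11 -0.0144 with library size. In Tet-MIST1 FOXM1 became 0.0087 without the trend of length and GC, PLK1 -0.0294 and -0.0059, and CDKN1A -0.0036 without that of length. With 1 library left out the ranges in Tet-One were -0.2307 to 0.1514 for MKI67, -0.1411 to 0.0408 for TOP2A, -0.0604 to 0.0886 for FOXM1, -0.0204 to 0.2106 for CDK1, -0.0166 to 0.1509 for CCNB1, -0.0156 to 0.2063 for AURKB, -0.0721 to 0.0087 for BUB1, -0.106 to 0.114 for NDC80 and -0.0538 to 0.0615 for KIF11. In Tet-MIST1 they were -0.0907 to 0.0208 for FOXM1, -0.0146 to 0.0563 for PLK1 and -0.0118 to 0.0343 for BUB1, and in Tet-PTF1a -0.0173 to 0.0321 for MKI67.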

Other observations

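In Control cells of Tet-PTF1a the members differed widely per length of exon. TPX2 stood highest at 182 ± 2.46 RPKM (TMM-scaled CPM per kilobase of exon, SD, n = 4), followed by TOP2A at 171 ± 3.37, BUB3 at 128 ± 1.46 and CCNB1 at 124 ± 1.54, and CENPM stood lowest at 9.46. BUB3 and CCNB1 were neighbours in this order. The order of the 44 genes was alike in the 3 lines, with Spearman coefficients of 0.907 to 0.953 over the 44 genes, which share libraries and gene lengths. By contrast, TOP2A had a Control mean of 674 CPM in Tet-One, 371 CPM in Tet-MIST1 and 986 CPM in Tet-PTF1a, in tables that were scaled separately and were not compared by a test.

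DNA replication genes, which act in S phase before mitosis, were counted as a list of 55. In Tet-MIST1 8 rose (14.5%, against 11.9% of all genes) and 2 fell (3.64%, against 8.77%), with a median log2 fold change of -0.0047. The number that rose there was 2 without Control replicate 1 or 3, 3 without Control replicate 2, Dox replicate 3 or Dox replicate 4, and 5 without Control replicate 4. The number that fell was 0 without Control replicate 1 or 2 and 1 without Control replicate 3 or 4 or Dox replicate 3 or 4. In these fits 7.07% to 9.72% of all genes rose and 3.49% to 6.03% fell. In Tet-PTF1a 8 rose (14.5%, against 23.8%) and 12 fell (21.8%, against 24.4%), with a median of -0.0072. The number that rose in Tet-PTF1a was 5 without Dox replicate 1 and 3 without Dox replicate 4, against 21.9% and 21.6% of all genes. In Tet-One none was called by edgeR's quasi-likelihood test, and 1 had an unadjusted p under 0.05.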
